A study of Ipomoea batatas with 12 samples.

Results

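The cell cycle and histone genes of sweetpotato roots were taken from the deposited gene table by the words of its descriptions. A gene was included when its description named an A-, B- or D-type cyclin, a cyclin-dependent kinase (CDK), the proliferating cell nuclear antigen, a DNA replication licensing factor or MCM protein, an E2F factor, an Aurora kinase or a histone, and when it named no histone-modifying enzyme or chaperone. Of the 45142 genes in the table, 127 were members. The words use no measured value, but they were chosen with earlier results of these data known. They were sorted by description into 4 linker histone H1 genes, 28 core histone genes (14 H2A, 7 H2B, 5 H3 and 2 H4), 11 MCM genes, 1 PCNA gene, 15 E2F genes, 18 D-type, 5 A-type and 1 B-type cyclin genes, 17 CDK inhibitor genes, 1 CDK regulatory subunit (CKS) gene, 11 other CDK genes, 1 Aurora kinase gene and 14 genes that match the words alone. Those 14 are 12 cyclin-D-binding Myb-like transcription factors, 1 calcyclin-binding protein-like gene and 1 E2F-associated phosphoprotein, and they are described apart. The core CDKs of plants, described in the table as cell division control protein 2 homologs, and the cyclins described as G2/mitotic-specific fall outside these words and are given with the other pathway genes.

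RNA of whole roots of the cultivar Taizhong 6, grown in a greenhouse, was sequenced in 12 libraries. Wild type (WT) had 1 library each of fibrous roots at 20 days (FR), developing tuberous roots labelled 1 month (DR) and mature tuberous roots labelled 4 months (MR), and the study's methods describe each as roots of several plants. Roots labelled as overexpressing the MADS-box gene MBP3 (MBP3-OE) were sequenced at the ages of 20 days, 1 month and 4 months, with 3 libraries per age that carry the replicate numbers 2, 3 and 8. The promoter that drives MBP3 is not given in the sources used here, and no source says whether its replicate numbers stand for lines, plants or pools, so a p-value covers no more than the spread among these libraries. The series description puts DR and MR at 60 and 120 days after planting, which does not match the 1 month of the DR label. Levels are given as FPKM, which scales for gene length and library depth. MBP3 gene g4107 stood at 15.3, 23.2 and 83.2 FPKM in the WT libraries FR, DR and MR, against 67.3 to 78.4, 29.7 to 58.3 and 55.8 to 121 FPKM in MBP3-OE of the same ages. At 4 months its level thus did not tell WT from MBP3-OE, and the mature WT library is referred to as the library labelled MR.

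In plants, as in other eukaryotes, D-type cyclins bind CDKs and phosphorylate the retinoblastoma-related protein, which frees E2F factors to switch on the genes of S phase. The MCM helicase then opens the DNA, PCNA clamps the polymerase to it, and new histones package the copies, while A- and B-type cyclins drive the later steps towards mitosis and CDK inhibitors hold the kinases back. A storage root thickens by divisions of its cambium and by growth of the parenchyma cells that fill with starch and storage protein, and cells that replicate DNA without dividing also use the MCM proteins and PCNA. Plant histone mRNAs carry poly(A) tails, unlike most of those of animals.

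Libraries held 39424503 to 58486728 counts, of which the members took 0.227% to 0.366%. Of the 127 members, 102 passed a minimum mean of 0.5 FPKM over the 12 libraries and were tested, and 25 did not. A gene was called when its Benjamini-Hochberg adjusted p over all 28065 genes was under 0.05 and its absolute log2 fold change at least 1, in edgeR's quasi-likelihood test. Tissue markers moved with age. Summed sporamin, the storage protein of the parenchyma, was between 495 and 1205 FPKM at 20 days and between 65836 and 136157 FPKM at 4 months in MBP3-OE, and 183 and 91502 FPKM in FR and the library labelled MR. The 2 root apex markers summed to 21.6 to 23.7 FPKM at 20 days and to 0 in all 3 MBP3-OE libraries of 4 months (13.7 FPKM in FR, 0.112 in MR). The 19 green-tissue genes, for chlorophyll-binding proteins and the small Rubisco subunit, summed to 67.5 to 157 FPKM in the 20-day, 209 to 901 in the 1-month and 3651 to 7456 in the 4-month libraries in MBP3-OE (448 FPKM in MR), and all 18 that were tested rose at 4 months. The part of these tissue differences in the results below was not tested, and in whole roots fewer cells of a type and less RNA per cell cannot be told apart.

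Members called at 4 months in MBP3-OE went in both directions. The falls were 7 core histone, 4 D-type cyclin, 1 A-type and 1 B-type cyclin, 4 CDK inhibitor, 3 E2F, 1 PCNA and 1 other CDK genes. The rises were 3 H1, 1 centromeric H3, 2 MCM, 2 D-type cyclin and 2 CDK inhibitor genes and 1 of the genes that match the words alone. Against 20 days, 11 of the 102 tested members rose and 22 fell, or 33 where 35.2% of all genes tested were called (17.5% higher and 17.8% lower). The members' called share is thus near that of all genes. At 1 month 6 members rose and 4 fell, beside 9.20% of all genes called (5.70% higher and 3.49% lower). Between 4 months and 1 month 6 rose and 15 fell, beside 17.0% of all genes (7.48% higher and 9.56% lower). The median log2 fold change of the tested members was -0.08 at 1 month and -0.05 at 4 months against 20 days, where the medians of all genes were 0.03 and 0.02. The comparisons with 20 days share the 20-day libraries, and those of 4 months share the 4-month libraries. The calls of 1 month were close to the thresholds. Most were lost in some fits with a library left out, while the log2 fold changes of all 10 kept their direction. The 6 rises became 0, 2 and 1 without 20-day replicates 2, 3 and 8, and 2, 4 and 4 without 1-month replicates 2, 3 and 8, and 1 of the 10 calls (cyclin D1-1-like g12614) was made whichever of the 9 libraries was left out. Of the 33 calls at 4 months 19 were made in all 9 such fits. The 22 falls became 13 without 20-day replicate 3, and the 15 falls from 1 month to 4 months became 6, 6, 5 and 9 without 1-month replicates 3 and 8, 4-month replicate 2 and 20-day replicate 8, and 10 without 1-month replicate 2.

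**Figure D1:**
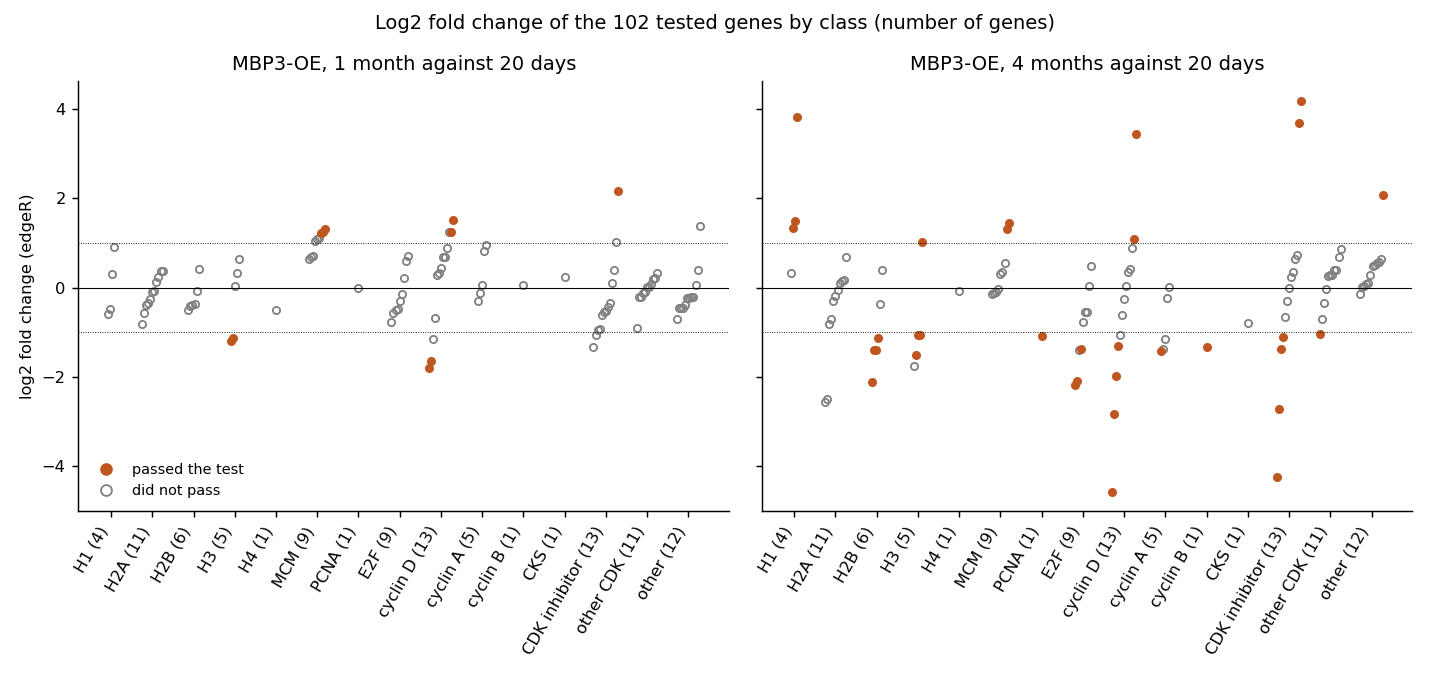
Log2 fold change from edgeR (vertical axis) of the 102 tested genes, set out by class on the horizontal axis with the number of genes in each, for MBP3-OE at 1 month and at 4 months against 20 days. Filled points passed the test and open points did not, and dotted lines mark log2 fold changes of -1 and 1. At 1 month all 9 MCM genes lie above 0, and at 4 months 3 of the 4 H1 genes rose while 7 of 23 core histone genes fell and 1 rose. Of all genes tested 17.5% rose and 17.8% fell at 4 months.

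Of the 4 linker histone genes 3 rose at 4 months, where 17.5% of all genes tested rose. Linker histone H1 binds the DNA between nucleosomes, and the 4 H1 genes together summed to 237, 362 and 294 FPKM at 20 days (MBP3-OE replicates 2, 3 and 8), 369, 328 and 273 FPKM at 1 month and 1309, 730 and 899 FPKM at 4 months. The 4-month libraries all lay above the others, and the means were 298 ± 62.7, 323 ± 48.3 and 979 ± 297 FPKM (SD, n = 3), a 3.29-fold difference between 4 months and 20 days. In WT the sum was 178 FPKM in FR, 147 in DR and 647 in the library labelled MR. Gene g405 (linkage group 1, 2217790 to 2218948) gave most of the difference. It was 39.8, 64.2 and 46.8 FPKM at 20 days, 146, 79.0 and 67.8 FPKM at 1 month and 945, 296 and 454 FPKM at 4 months. Replicate 2 was the highest at 1 month and at 4 months, and the groups of 3 libraries did not overlap. The log2 fold change at 4 months was 3.81 (standard error 0.56, adjusted p = 0.000953), or 14-fold, and stayed between 3.13 and 4.16 with each library left out in turn. At 1 month it was 0.90 (standard error 0.50, adjusted p = 0.266) and did not pass. The gene held 15.9% to 17.7% of the summed H1 FPKM at 20 days, 24.1% to 39.6% at 1 month and, at 4 months, 40.5% to 72.2% in MBP3-OE.

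A further pair of H1 genes rose to a smaller degree, and the fourth did not pass. H1-like g9616 was 64.9, 97.7 and 83.8 FPKM at 20 days and 156, 209 and 208 FPKM at 4 months (log2 fold change 1.49, standard error 0.24, adjusted p = 0.00136). H1-like g13164 was 44.3, 62.0 and 46.1 FPKM at 20 days, 35.2, 45.4 and 35.6 FPKM at 1 month and 108, 95.3 and 111 FPKM at 4 months (1.34 against 20 days, standard error 0.20, adjusted p = 0.00113). Its 4-month libraries lay close together and above all others. H1-like g5334, the most abundant of the 4 at 20 days, was 87.7, 138 and 117 FPKM there and 99.2, 130 and 125 FPKM at 4 months, with overlapping groups (0.32, standard error 0.21, adjusted p = 0.245). The rise of 3 of the 4 was found under each scaling and tool tried. In WT, g9616 was 33.9, 45.3 and 220 FPKM in FR, DR and the library labelled MR and passed the test of MR against FR (2.81, standard error 0.43, adjusted p = 0.00444). Gene g405 was 35.7, 35.6 and 249 FPKM and just missed it (2.91, standard error 0.93, adjusted p = 0.0544).

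Core histones, which form the nucleosome itself, went the other way in MBP3-OE. Their 28 genes summed to 928, 1192 and 990 FPKM at 20 days, 745, 878 and 831 FPKM at 1 month and 560, 619 and 635 FPKM at 4 months in MBP3-OE, and to 749, 688 and 565 FPKM in FR, DR and the library labelled MR. The 3 ages of MBP3-OE did not overlap. Between 20 days and 1 month only H3 was without overlap (272 to 337 against 137 to 164 FPKM), while the H2A, H2B and H4 sums overlapped. In FR, DR and MR the H3 sum was 241, 161 and 67.5 FPKM. H2A was 179, 194 and 187 FPKM there, H2B 245, 277 and 211 and H4 84.0, 56.1 and 99.8. The median log2 fold change of the 23 core histone genes tested was -0.0001 between FR and MR, with 11 above 0. In MBP3-OE 7 of the 23 fell and 1 rose at 4 months, where 17.8% of all genes tested fell and 17.5% rose. The median log2 fold change of the 23 was -0.71. With library totals in place of TMM scaling, which moves the median of all genes from 0.02 to -0.23, 8 fell and 0 rose. By DESeq2 10 fell and 0 rose, and 12 had an unadjusted p under 0.05 in edgeR. The ratio of summed H1 to summed core histone FPKM was 0.255 to 0.304 at 20 days, 0.328 to 0.495 at 1 month and, at 4 months, 1.18 to 2.34, and 0.238, 0.213 and 1.15 in the WT libraries. A ratio within a library does not depend on its scaling.

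**Figure D2:**
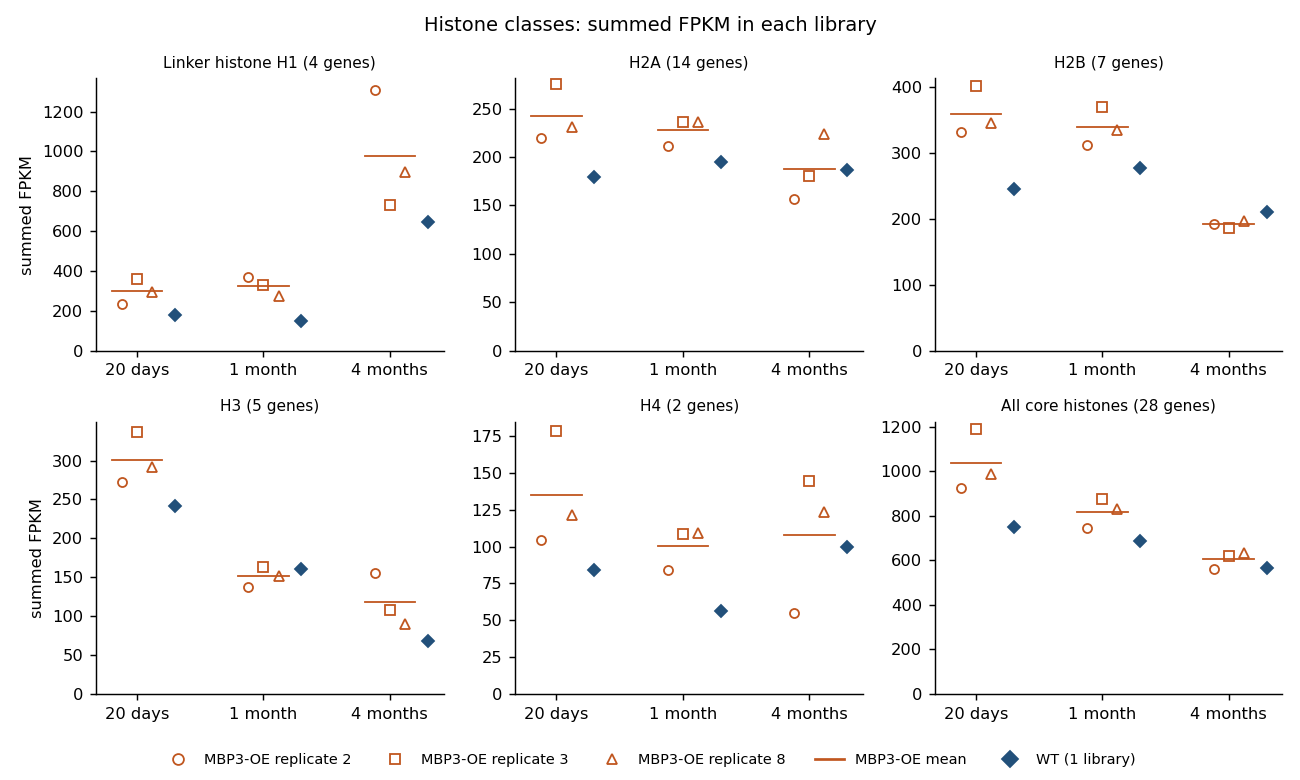
Summed FPKM (vertical axes, from 0) of each histone class in each of the 12 libraries, by age. Open orange symbols are MBP3-OE replicates 2, 3 and 8, orange lines their means, and blue diamonds the single WT library of each age. H1 lies at 730 to 1309 FPKM in the 4-month MBP3-OE libraries against 237 to 362 at 20 days, whereas H3 lies at 90.0 to 155 against 272 to 337.

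Histone H3 was dominated by a pair of H3.3 genes that fell early. H3.3 is the variant that is placed into chromatin also outside replication. Gene g38876 (linkage group 10, 4858074 to 4859984) was 139, 175 and 146 FPKM at 20 days, 63.7, 78.6 and 70.5 FPKM at 1 month and 78.6, 57.0 and 43.4 FPKM at 4 months. Both later ages lay wholly below 20 days and overlapped each other. Its log2 fold change was -1.19 at 1 month (standard error 0.24, adjusted p = 0.0176) and -1.07 at 4 months (standard error 0.24, adjusted p = 0.00698). Gene g38591, on the same linkage group (2876518 to 2878352), has the same description and changed by -1.13 (standard error 0.26, adjusted p = 0.0276) and -1.06 (adjusted p = 0.0106). The FPKM of g38876 was 1.01 to 1.24 times that of g38591 in all 12 libraries, and how reads common to such copies were counted is not given in the sources used here, so the pair is best read as a sum. That sum was 261 to 324 FPKM at 20 days, 123 to 149 at 1 month and, at 4 months, 81.8 to 152, and 234, 154 and 59.8 FPKM in FR, DR and the library labelled MR, where both genes fell as well (-1.94 and -1.78, adjusted p = 0.0157 and 0.0284). The 1-month calls held in 5 and 3 of 9 fits with a library left out, with adjusted p of 0.00341 to 0.0688 for g38876 and 0.00310 to 0.0944 for g38591. At 4 months each passed in 6 of 9 such fits.

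The other H3 genes were far less abundant. H3.2-like g62054 was 4.22, 5.63 and 3.84 FPKM at 20 days, 7.41, 5.09 and 5.47 FPKM at 1 month and 0.506, 1.40 and 2.07 FPKM at 4 months, and fell at 4 months (log2 fold change -1.50, standard error 0.47, adjusted p = 0.0295, which ranged from 0.0101 to 0.0931 with a library left out). H3.2 gene g57603 went from 4.90, 5.76 and 5.83 FPKM to 0.253, 0.885 and 2.82 FPKM with no overlap, yet its adjusted p was 0.0596 (-1.76, standard error 0.68). It was called lower with library totals, in DESeq2, in limma, with MBP3-OE libraries alone and without 4-month replicate 8 (-3.08, adjusted p = 0.00253). The centromeric histone H3, which marks where the spindle attaches and is described as HTR12, was the only H3 gene with a rise. This gene, g31331, was 1.95, 1.5 and 1.39 FPKM at 20 days and 2.0, 2.77 and 3.30 FPKM at 4 months (1.02, standard error 0.31, adjusted p = 0.0266). The call was lost with library totals (0.75, adjusted p = 0.0848), with median-ratio scaling and DESeq2 (both 0.95), in limma (0.49, adjusted p = 0.0715), with no FPKM filter (adjusted p = 0.0595), with MBP3-OE libraries alone (0.99) and without 20-day replicates 3 and 8 or 4-month replicate 8.

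Among H2B genes 4 of 6 tested fell at 4 months, where 17.8% of all genes tested fell, and the most abundant did not pass. The H2B genes g55014 and g55015 lie side by side on linkage group 13 (27405403 to 27406130 and 27407803 to 27408490, both on the plus strand). Gene g55015 was 87.2, 102 and 85.8 FPKM at 20 days, 68.4, 76.6 and 75.5 FPKM at 1 month and 24.5, 45.3 and 35.5 FPKM at 4 months, with no overlap between ages (log2 fold change at 4 months -1.12, standard error 0.19, adjusted p = 0.00172). Its neighbour g55014 fell by 1.40 (standard error 0.26, adjusted p = 0.00298), from 67.7 to 82.7 FPKM to 16.3 to 27.5 FPKM. The less abundant g4820 fell from 7.17, 13.2 and 9.11 FPKM to 0.983, 1.57 and 3.06 FPKM (-2.10, standard error 0.45, adjusted p = 0.00572), and g48489 from 9.42, 13.2 and 9.95 FPKM to 1.71, 3.54 and 5.01 FPKM (-1.39, standard error 0.37, adjusted p = 0.0150). Without 20-day replicate 3 the adjusted p of g48489 was 0.0555. The most abundant H2B gene, g60865, was 123, 145 and 132 FPKM at 20 days and 100.3, 64.6 and 87.8 FPKM at 4 months (-0.36, standard error 0.22, adjusted p = 0.213). H2B-like g31178 was 36.8 to 45.7 FPKM at 20 days and 40.5 to 48.6 FPKM at 4 months.

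For H2A and H4 the test made no call in MBP3-OE. Of 11 H2A genes tested 0 passed in edgeR at 4 months, where 35.2% of all genes tested did. Of the 11, 2 had an unadjusted p under 0.05, and DESeq2 and limma each called 2. Their median log2 fold change was -0.19. The most abundant, g5352, was 59.5, 69.3 and 60.7 FPKM at 20 days and 39, 37.5 and 48.7 FPKM at 4 months, wholly lower in FPKM but at -0.31 after TMM scaling (standard error 0.19, adjusted p = 0.204). The largest differences were those of the H2A variant 3 genes g21773, from 3.54, 6.06 and 3.75 FPKM to 0, 0.826 and 1.06 FPKM, and g16150, from 2.54, 3.75 and 3.27 FPKM to 0, 1.09 and 0.363 FPKM (-2.56 and -2.49, standard errors 1.01 and 0.97, adjusted p = 0.0663 and 0.0613). The H2AX genes, which code for the variant that is phosphorylated at DNA breaks, included g13265 at 24.3 to 27.7 FPKM and 17.2 to 29.2 FPKM at the same ages. H4-like g10031 was 104, 179 and 122 FPKM at 20 days and 55.0, 145 and 123 FPKM at 4 months (-0.07, standard error 0.32).

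All MCM genes tested were higher at 1 month, and 3 of the 9 rose by the test, where 5.70% of all genes tested did. MCM2 to MCM7 form the ring-shaped helicase that is loaded on origins before S phase, and MCM8 and MCM9 form a related helicase that acts in recombination. In MBP3-OE all 9 had a higher FPKM in every 1-month library than in every 20-day library, where 25.5% of all genes tested were. The FPKM of MCM2 to MCM7 summed to 29.1, 26.8 and 23.8 at 20 days, 65.7, 56.8 and 41.3 at 1 month and 19.8, 38.4 and 26.4 at 4 months. In these sums, which carry no TMM scaling, the 1-month libraries thus lay above both other ages. The log2 fold changes of the 7 genes at 1 month ran from 0.63 to 1.25 with a median of 1.09, where 2 passed the test in edgeR, 5 in DESeq2 and 1 in limma, and all 7 had an unadjusted p under 0.05.

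MCM4 g11454 was 1.88, 1.44 and 1.63 FPKM at 20 days, 5.36, 4.00 and 2.88 FPKM at 1 month and 1.64, 2.39 and 1.91 FPKM at 4 months (log2 fold change at 1 month 1.25, standard error 0.27, adjusted p = 0.0225). MCM5 g47085 was 4.99, 4.60 and 3.40 FPKM, 13.2, 11 and 7.53 FPKM and 7.59, 11.7 and 9.76 FPKM (1.23, standard error 0.25, adjusted p = 0.0190). It was the only gene of the ring called at 4 months, where it rose by 1.44 (standard error 0.26, adjusted p = 0.00237). MCM9 g59512 was 1.21, 1.67 and 0.854 FPKM at 20 days and a narrow 3.27, 3.22 and 3.35 FPKM at 1 month (1.32, standard error 0.31, adjusted p = 0.0277), and was 0.896, 1.64 and 1.41 FPKM at 4 months. Leaving out 1 library took the adjusted p of these 1-month calls to between 0.0199 and 0.0895 for MCM4, 0.0166 and 0.0829 for MCM5 and 0.0190 and 0.105 for MCM9, and each passed in 5, 5 and 4 of 9 such fits.

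MCM3 g37378 was 5.21, 5.66 and 4.39 FPKM at 20 days, 13.3, 10.2 and 9.32 FPKM at 1 month and 2.14, 5.93 and 3.57 FPKM at 4 months. It missed the threshold at 1 month (1.04, standard error 0.31, adjusted p = 0.0594) and fell between 1 month and 4 months (-1.18, standard error 0.31, adjusted p = 0.0270). MCM6 g19075 did likewise, at 4.18, 4.33 and 3.18 FPKM, 11.1, 8.85 and 6.44 FPKM and 1.79, 4.51 and 2.81 FPKM (1.11 with adjusted p = 0.0527, then -1.22 with adjusted p = 0.0270). The adjusted p of these falls ranged from 0.0101 to 0.0671 for MCM3 and from 0.0147 to 0.0677 for MCM6 with a library left out. MCM2 g13680 and MCM7 g23960 gave 0.68 and 0.63 at 1 month, and the second MCM4 gene, g11515, 1.09. MCM8 g8760 went in mean FPKM from 0.568 at 20 days to 0.980 at 1 month and 1.16 at 4 months, and passed at 4 months (1.31, standard error 0.27, adjusted p = 0.00484). At 4 months the median log2 fold change of MCM2 to MCM7 against 20 days was -0.04.

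**Figure D3:**
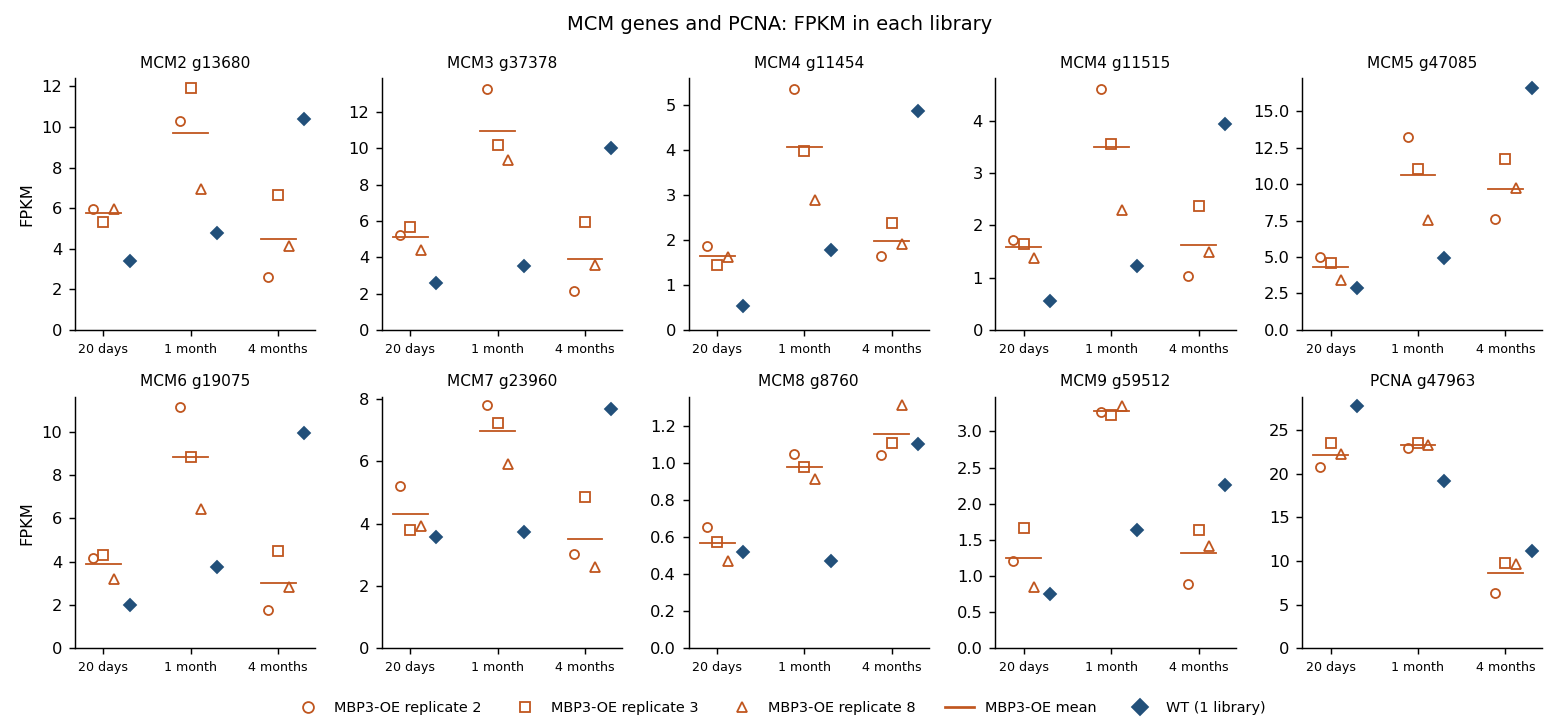
FPKM (vertical axes, from 0) of 9 MCM genes and of PCNA in each library, by age, with open orange symbols for MBP3-OE replicates 2, 3 and 8, orange lines for their means and blue diamonds for the single WT libraries. In MBP3-OE the MCM2 to MCM7 genes are highest at 1 month, in WT they are highest in the library labelled MR, and PCNA falls at 4 months from about the same level at 20 days (20.7 to 23.5 FPKM) and 1 month (22.9 to 23.5 FPKM).

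In WT the MCM genes were highest in the library labelled MR rather than in DR. The summed FPKM of MCM2 to MCM7 was 15.5 in FR, 23.7 in DR and 63.4 in MR. MCM4 g11454 had 0.532, 1.78 and 4.88 FPKM in the libraries FR, DR and MR (MR against FR 3.30, standard error 0.51, adjusted p = 0.00474), and MCM5 g47085 was 2.85, 4.93 and 16.6 FPKM (2.65, standard error 0.46, adjusted p = 0.00693). Of the 7 genes of the ring 6 rose between FR and MR, where 11.5% of all genes tested did, with MCM7 at 1.20 (adjusted p = 0.0588). The age effect at 4 months was thus smaller in MBP3-OE by 2.76 (standard error 0.56) for MCM4 g11454, 2.62 for MCM4 g11515, 2.53 for MCM6 and 2.20 for MCM3 on the log2 scale. None of these differences passed in edgeR, with adjusted p of 0.151, 0.232, 0.222 and 0.263, where 0 of 102 members and 0 of all genes were called. Of the 102 members 12 had an unadjusted p under 0.05, near the share of all genes (11%). DESeq2 called these 4 genes, with adjusted p of 0.00153 to 0.0448, and 746 genes in all. With 1 WT library per age the difference cannot be told apart from a difference between single libraries.

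PCNA, the clamp of the replication fork, did not follow the MCM genes. PCNA gene g47963 (linkage group 12, 8060811 to 8062593) was 20.7, 23.5 and 22.2 FPKM at 20 days, 22.9, 23.5 and 23.3 FPKM at 1 month and 6.30, 9.81 and 9.69 FPKM at 4 months. The 1-month libraries were the tightest group and overlapped 20 days (log2 fold change -0.01, standard error 0.18), whereas the 4-month libraries lay below both (-1.09, standard error 0.18, adjusted p = 0.00171). Without 4-month replicate 2 the value was -0.97, just inside the fold threshold. In WT it was 27.7, 19.1 and 11.1 FPKM and fell between FR and the library labelled MR (-1.21, standard error 0.31, adjusted p = 0.0285). CKS gene g47773, whose small protein docks CDKs on their substrates, was 23.4, 26.5 and 21.8 FPKM at 20 days, 23.2, 31.9 and 34.1 FPKM at 1 month and 10.2, 9.30 and 14 FPKM at 4 months. It fell between 1 month and 4 months (-1.03, standard error 0.23, adjusted p = 0.0155), lay at -0.80 against 20 days (adjusted p = 0.0191, under the fold threshold; -1.08 with library totals, -1.05 in limma and -1.06 without 4-month replicate 8, all called) and fell in MR against FR (-1.35, standard error 0.40, adjusted p = 0.0424).

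Of the 6 A- and B-type cyclins tested 2 fell at 4 months, where 17.8% of all genes tested fell. Cyclin B3-1 g71, the only B-type cyclin by these words, was 1.91, 2.99 and 1.98 FPKM at 20 days, 1.68, 3.01 and 2.90 FPKM at 1 month and 0.378, 0.834 and 1.05 FPKM at 4 months (log2 fold change against 20 days -1.33, standard error 0.40, adjusted p = 0.0241, from 0.0128 to 0.0879 with a library left out). The groups at 20 days and 1 month overlapped and that of 4 months lay below both. Of 5 A-type cyclins tested 1 fell, cyclin A3-1 g60373, from 1.36, 1.47 and 0.981 FPKM to 0.535, 0.276 and 0.331 FPKM (-1.41, standard error 0.43, adjusted p = 0.0256). Cyclin A2-1-like g21182 narrowly missed the threshold, at 3.95, 3.45 and 3.92 FPKM and 0.567, 1.54 and 2.11 FPKM (-1.15, standard error 0.42, adjusted p = 0.0509), and passed with both other scalings, DESeq2 and limma. The most abundant A-type gene, cyclin A3-1 g41930, gave -0.24 (standard error 0.32).

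Of 9 E2F genes tested 3 fell at 4 months, where 17.8% of all genes tested fell. Those 3 are named for E2FA or E2FB, which activate S-phase genes in Arabidopsis. E2FB-like g51073, the most abundant, was 13.0, 16.3 and 15.0 FPKM at 20 days, 14.1, 8.09 and 9.06 FPKM at 1 month and 2.88, 5.96 and 5.33 FPKM at 4 months (log2 fold change -1.38, standard error 0.31, adjusted p = 0.00691). E2FA-like g41466 was 2.83, 1.9 and 1.78 FPKM at 20 days and 0.253, 0.739 and 0.213 FPKM at 4 months (-2.17, standard error 0.44, adjusted p = 0.00449). E2FA-like g3013 was 1.96, 1.07 and 1.40 FPKM and then 0.126, 0.427 and 0.310 FPKM (-2.09, standard error 0.44, adjusted p = 0.00495). All 3 groups of 4 months lay below those of 20 days, as did those of 8 of the 9 E2F genes tested, where 39.1% of all genes tested did. The median log2 fold change of the 9 was -0.77, with 3 falls and 0 rises in edgeR, the same in DESeq2 and 2 falls in limma. E2FF-like g30125, of the atypical group that binds DNA without a partner, was 8.44 to 10.8 FPKM at 20 days and 7.21 to 8.42 FPKM at 4 months (0.04, standard error 0.16). E2FB-like g4529 and the atypical E2FE-like g53661 fell between 1 month and 4 months (-1.26 and -1.14, adjusted p = 0.0205 and 0.0313) after 1-month values of 7.63, 5.29 and 3.75 FPKM and of 1.60, 2.76 and 3.11 FPKM. In WT 0 of the 9 passed between FR and MR in edgeR, DESeq2 and limma, and 0 had an unadjusted p under 0.05. E2FB-like g51073 was 15.0, 10.3 and 6.83 FPKM there (-1.02, standard error 0.53, adjusted p = 0.194).

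D-type cyclins, which start the cycle in response to sugar and hormones, exchanged members with age. Cyclin D1-1 g47166 (linkage group 12, 1924235 to 1928717) was 3.13, 3.49 and 4.82 FPKM at 20 days, 12.5, 6.62 and 9.38 FPKM at 1 month and 29.7, 37.3 and 35.4 FPKM at 4 months. No group overlapped another, and the log2 fold change was 1.25 at 1 month (standard error 0.29, adjusted p = 0.0259) and 3.43 at 4 months (standard error 0.31, adjusted p = 0.000145), or 10.8-fold. At 4 months it was the most abundant D-type cyclin in all 3 libraries. The genes described as cyclin D1-1-like ran the opposite way. Gene g12075 was 16.1, 8.16 and 11.5 FPKM at 20 days, 2.99, 4.90 and 2.87 FPKM at 1 month and 0.906, 2.23 and 1.06 FPKM at 4 months (-1.81 and then -2.83 against 20 days, standard errors 0.37 and 0.38, adjusted p = 0.0181 and 0.000704). Gene g12614 was 10.6, 8.77 and 9.31 FPKM, then 2.78, 3.51 and 3.32 FPKM, then 1.65, 2.62 and 1.79 FPKM (-1.65 and -1.97, both with standard error 0.21, adjusted p = 0.00371 and 0.000252). In both, no age overlapped another. The 1-month call of g47166 was lost without 20-day replicates 2 and 3 or 1-month replicates 2 and 8, with adjusted p of 0.0155 to 0.102 over the fits with a library left out. That of g12075 was lost without 20-day replicates 2 and 8 or 1-month replicates 2 and 8 (0.0115 to 0.0741).

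WT libraries showed the same exchange between FR and the library labelled MR. Cyclin D1-1 g47166 had 4.69, 6.24 and 20.2 FPKM in the libraries FR, DR and MR (MR against FR 2.21, standard error 0.51, adjusted p = 0.0182), g12075 was 7.16, 5.95 and 0.204 FPKM (-4.98, standard error 0.75, adjusted p = 0.00438) and g12614 was 5.84, 3.34 and 0.585 FPKM (-3.19, standard error 0.38, adjusted p = 0.00245). Cyclin D4-1-like g16789 was 2.92, 9.18 and 10.2 FPKM and rose (1.92, standard error 0.35, adjusted p = 0.00814). In MBP3-OE that gene was 4.20, 4.47 and 4.74 FPKM at 20 days, 7.27, 8.25 and 7.17 FPKM at 1 month and 6.14, 8.06 and 9.19 FPKM at 4 months (1.08 at 4 months, standard error 0.20, adjusted p = 0.00262, and 0.83 with library totals and 0.67 in limma, under the fold threshold). It was also the member that DESeq2 and limma called between DR and FR (1.46 and 1.38, adjusted p = 0.00478 and 0.0491), where edgeR gave 1.47 with adjusted p = 0.123.

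A further 3 D-type cyclins were called in MBP3-OE. Cyclin D4-2-like g42042 was 11.8, 5.99 and 6.10 FPKM at 20 days, 1.46, 9.52 and 0.587 FPKM at 1 month and 0.169, 0.396 and 0.265 FPKM at 4 months. Replicate 3 stood apart at 1 month, within the 20-day range. The log2 fold change at 4 months was -4.57 (standard error 0.97, adjusted p = 0.00538) and that at 1 month -1.14 (standard error 0.83, adjusted p = 0.395), or -2.97 without 1-month replicate 3 (adjusted p = 0.0197). Between 1 month and 4 months it fell by 3.42 (adjusted p = 0.0304). Cyclin D3-3-like g17192 was 1.08, 1.32 and 1.31 FPKM at 20 days, 2.92, 4.48 and 3.94 FPKM at 1 month and 0.709, 1.52 and 1.89 FPKM at 4 months, and rose at 1 month (1.52, standard error 0.35, adjusted p = 0.0270, from 0.00826 to 0.107 with a library left out). It fell between 1 month and 4 months (-1.10, adjusted p = 0.0497), a call that held in 1 of 9 such fits. Cyclin D3-1-like g43262 fell at 4 months, from 9.13, 8.19 and 12 FPKM to 2.69, 2.41 and 4.57 FPKM (-1.30, standard error 0.42, adjusted p = 0.0323, from 0.0158 to 0.107). The abundant cyclin D4-1-like g60227 was 8.59 to 11.1 FPKM at 20 days, 11.9 to 25.0 at 1 month and, at 4 months, 5.30 to 16.9 and did not pass. The sum over all 18 D-type cyclin genes was 64.1 ± 7.32 FPKM at 20 days, 65.9 ± 3.72 at 1 month and 65.4 ± 12.9 at 4 months (SD, n = 3), so the ages differed by less than the spread.

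**Figure D4:**
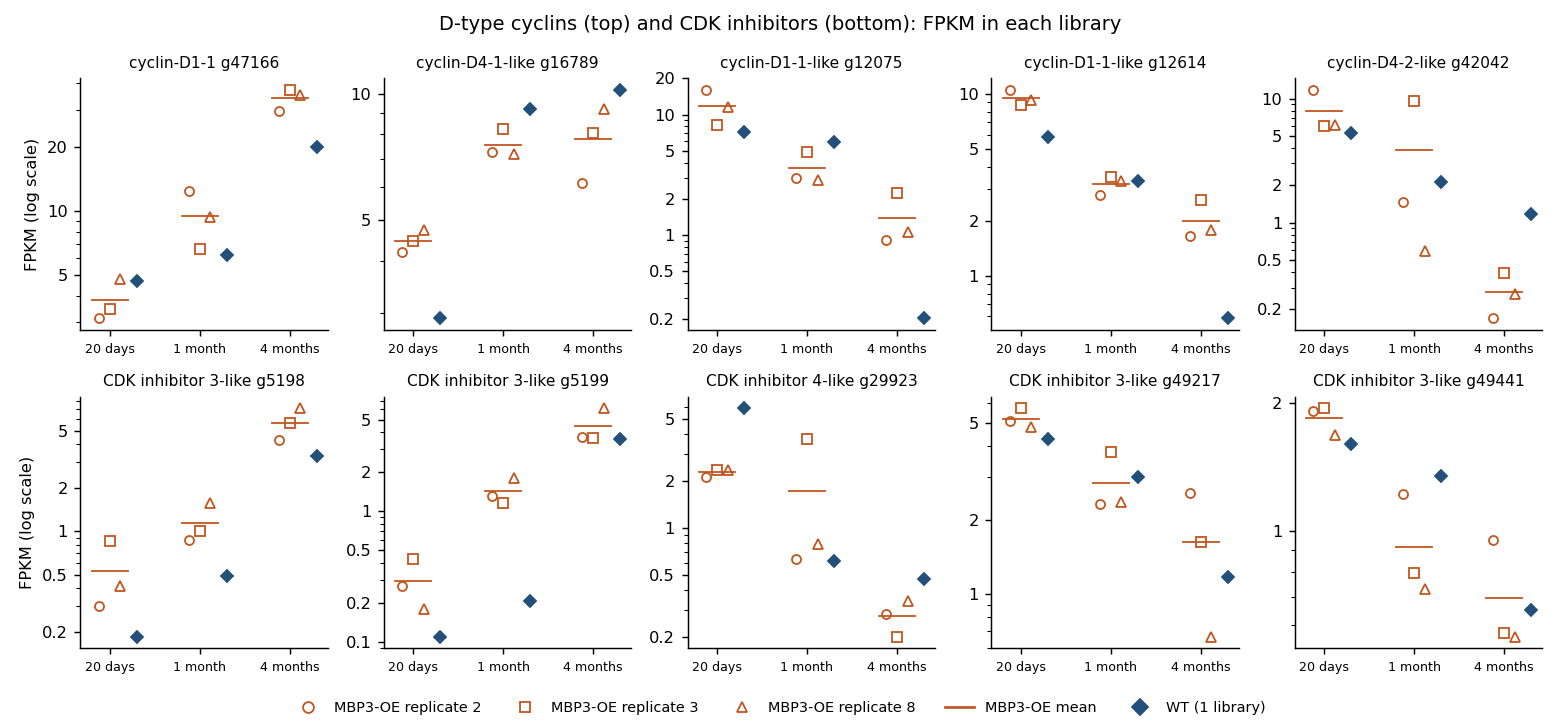
FPKM (vertical axes, log scale) of 5 D-type cyclin genes in the top row and 5 CDK inhibitor genes in the bottom row, in each library by age, with open orange symbols for MBP3-OE replicates, orange lines for their means and blue diamonds for WT. Cyclin D1-1 g47166 and the inhibitors g5198 and g5199 increase with age in both genotypes, and the other genes shown except cyclin D4-1-like g16789 have their lowest MBP3-OE mean at 4 months.

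Among CDK inhibitors 2 rose and 4 fell at 4 months, of 13 tested, where 17.5% of all genes tested rose and 17.8% fell. The 2 that rose are neighbours on the minus strand of linkage group 2, both described as cyclin-dependent kinase inhibitor 3-like. Gene g5198 (6570394 to 6571168) was 0.301, 0.857 and 0.417 FPKM at 20 days, 0.864, 1.00 and 1.57 FPKM at 1 month and 4.30, 5.61 and 7.13 FPKM at 4 months (log2 fold change 3.68, standard error 0.49, adjusted p = 0.000657). Gene g5199 (6571865 to 6573288) was 0.267, 0.430 and 0.180 FPKM, then 1.32, 1.15 and 1.80 FPKM, then 3.71, 3.61 and 6.11 FPKM. Its log2 fold change was 2.16 at 1 month (standard error 0.42, adjusted p = 0.0154) and 4.18 at 4 months (standard error 0.45, adjusted p = 0.000266). Its 3 ages did not overlap. The 1-month call of g5199 was lost without 20-day replicates 2 and 8 (adjusted p = 0.0691 and 0.0667, with a range of 0.0154 to 0.0691) and the 4-month calls of both held in all 9 fits. In WT g5198 was 0.184, 0.485 and 3.31 FPKM and g5199 was 0.109, 0.206 and 3.59 FPKM in FR, DR and the library labelled MR (4.18 and 5.01, standard errors 0.90 and 0.83, adjusted p = 0.0149 and 0.00585). The genes lie 1 next to the other in the annotation, and how fragments that bridge such neighbours were counted is not given in the sources used here.

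The 4 inhibitors that fell had mean levels of 0.573 to 3.12 FPKM over the 12 libraries, against 1.87 and 2.17 FPKM for the pair that rose. CDK inhibitor 4-like g29923 was 2.13, 2.36 and 2.36 FPKM at 20 days, 0.631, 3.74 and 0.789 FPKM at 1 month and 0.283, 0.201 and 0.342 FPKM at 4 months (log2 fold change -2.71, standard error 0.69, adjusted p = 0.0118). As for cyclin D4-2-like g42042, replicate 3 stood apart at 1 month. In WT g29923 was 5.87, 0.619 and 0.474 FPKM (MR against FR -3.50, standard error 1.20, adjusted p = 0.0677). CDK inhibitor 3-like g49217 was 5.07, 5.72 and 4.80 FPKM at 20 days and 2.59, 1.63 and 0.664 FPKM at 4 months (-1.38, standard error 0.46, adjusted p = 0.0353), and g49441 was 1.92, 1.94 and 1.68 FPKM and 0.953, 0.574 and 0.563 FPKM (-1.09, standard error 0.37, adjusted p = 0.0369). Both passed in 4 of the 9 fits with a library left out, with adjusted p of 0.00591 to 0.0932 and 0.0141 to 0.0958. CDK inhibitor 7-like g59697 was 0.718, 1.11 and 1.24 FPKM at 20 days and was called lower at 4 months, where it was 0, 0.129 and 0 FPKM. The most abundant inhibitor, CDK inhibitor 7-like g1114, was 9.06, 7.20 and 8.12 FPKM at 20 days and 6.64, 3.84 and 5.41 FPKM at 4 months (-0.31, standard error 0.37). The summed FPKM of all 17 genes was 43.6 to 52.4 at 20 days and 37.9 to 48.7 at 4 months.

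The other CDK genes code for kinases named for the letters C to G, of which the C- and E-type act on RNA polymerase II and the D-type activate other CDKs. Their 11 genes summed to 255 to 275 FPKM at 20 days, 271 to 283 FPKM at 1 month and, at 4 months, 254 to 295 FPKM in MBP3-OE and to 259, 269 and 270 FPKM in FR, DR and the library labelled MR. At 4 months 1 of the 11 passed, where 35.2% of all genes tested did. CDKC-1-like g650 was 18.5, 17.2 and 18.6 FPKM at 20 days, 19.4, 15.5 and 30.2 FPKM at 1 month and 5.77, 8.84 and 7.28 FPKM at 4 months (log2 fold change -1.04, standard error 0.24, adjusted p = 0.00823), and it also fell in MR against FR (-1.42, standard error 0.42, adjusted p = 0.0442). The other gene of that description, g16768, was 23.3 to 24.5 FPKM at 20 days and 21.6 to 27.1 FPKM at 4 months. CDKF-4-like g60716, the most abundant CDK gene, was 70.4, 68.6 and 69.1 FPKM at 20 days and 122, 94.0 and 93.7 FPKM at 4 months, a difference of 0.87 that was under the fold threshold (standard error 0.19, adjusted p = 0.00588). CDKG-2 g50520 was 55.2 to 68.6 FPKM and 48.6 to 77.3 FPKM.

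Of the 14 genes that only match the words, 12 were tested and 1 was called at 4 months, where 35.2% of all genes tested were. Calcyclin-binding protein-like g45829, whose name refers to a calcium-binding protein and not to a cyclin, was 12, 13.1 and 9.27 FPKM at 20 days, 52.7, 21.5 and 18.3 FPKM at 1 month and 53.3, 26.7 and 35.8 FPKM at 4 months (log2 fold change 2.06, standard error 0.48, adjusted p = 0.00776). Without these 14 genes the counts at 4 months were 10 rises and 22 falls of 90. Of the 12 tested, 11 had a log2 fold change above 0 at 4 months against 20 days (median 0.38) and 12 against 1 month (median 0.61). The medians of all genes were 0.02 and -0.01. The cyclin-D-binding Myb-like genes gave no call at 4 months, with g35944 at 12.1 to 13.3 FPKM at 20 days and 8.35 to 13.0 FPKM at 4 months. Of them 6 lie within 100 kb on linkage group 6, from 6567434 to 6655215.

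WT roots gave 19 calls between FR and the library labelled MR, 11 higher and 8 lower, beside 20.6% of all genes tested (11.5% higher and 9.15% lower), with the spread taken from MBP3-OE. Of the 11 members that rose at 4 months in MBP3-OE 6 also rose in WT (54.5% of either list), and of the 22 that fell 6 also fell in WT, which is 27.3% of the MBP3-OE list and 75.0% of the WT list of 8. Over all genes tested those shares were 48.4% and 73.6% for rises and 37.7% and 73.1% for falls. No member was called in opposite directions. The 6 shared rises were H1-like g9616, MCM5, cyclin D1-1 g47166, cyclin D4-1-like g16789 and the CDK inhibitor pair, and the 6 shared falls were the H3.3 pair, PCNA, both cyclin D1-1-like genes and CDKC-1-like g650. MCM2, MCM3, MCM6 and both MCM4 genes were called higher, and CKS and CDK inhibitor 3-like g49438 lower, in WT and not in MBP3-OE, and none of these differences between genotypes passed in edgeR. The count of 19 was 13 without 20-day replicate 3 or 8 and 25 and 23 without 4-month replicates 2 and 3.

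**Figure D5:**
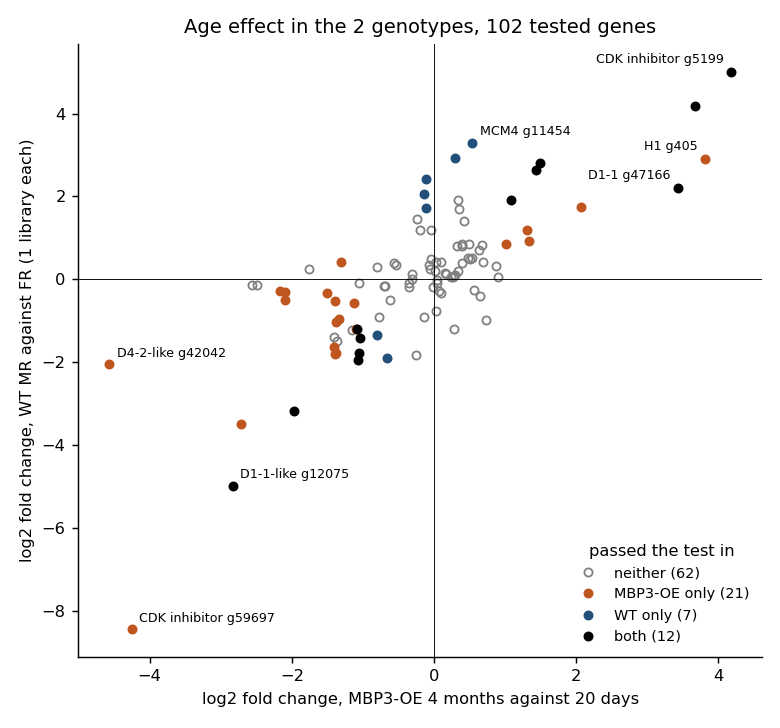
Log2 fold change of the 102 tested genes from edgeR at 4 months against 20 days in MBP3-OE (horizontal axis, 3 libraries each) and for MR against FR in WT (vertical axis, 1 library each). Black points passed the test in both (12 genes), orange in MBP3-OE only (21), blue in WT only (7) and open grey in neither (62). The MCM genes called in WT only lie at 1.72 to 3.30 on the vertical axis and at -0.14 to 0.54 on the horizontal one.

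Between DR and FR 0 members passed in edgeR, beside 0.178% of all genes. Of the 102, 7 had an unadjusted p under 0.05 (12.7% of all genes did), and DESeq2 and limma each called 1. For MBP3-OE against WT averaged over ages 0 passed, beside 0.164% of all genes (0.103% higher and 0.0606% lower), with 14 at an unadjusted p under 0.05 (16.2% of all genes), 1 called by DESeq2 and 0 by limma. That gene was CDK inhibitor 3-like g5199, higher in MBP3-OE by 1.44 in DESeq2 (adjusted p = 0.0119) and by 1.45 in edgeR (standard error 0.37, adjusted p = 0.115). The median log2 difference of the tested members was 0.23, where that of all genes was 0.06. For the difference of the 1-month effect between genotypes 0 members passed in edgeR, DESeq2 and limma, beside 0, 183 and 18 of all genes. An unadjusted p under 0.05 was found for 0, 2 and 3 members, beside 6.16%, 7.7% and 7.29% of all genes.

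Other genes of the same pathways were taken by lists of description words. For comparison, 17.5% of all genes tested rose and 17.8% fell at 4 months against 20 days in MBP3-OE. At 1 month 5.70% rose and 3.49% fell. Of 104 replication genes tested from a list of 149 (polymerases, replication protein A, origin recognition and others), 20 rose and 14 fell at 4 months in MBP3-OE and 1 rose and 1 fell at 1 month, with a median log2 fold change of 0.11 at 4 months. Without the many genes described as replication protein A 70 kDa B-like and D-like, 6 rose and 12 fell of 61. Among the most abundant of the list, DNA ligase 1-like g53972, which seals replicated strands, changed by 0.68 at 1 month (standard error 0.15, adjusted p = 0.0261) and 0.60 at 4 months. Histone chaperone ASF1-like g24966 (-0.34 and -0.72) and g58387 (-0.58 and -0.18) and GINS protein PSF2-like g3687 (-0.38 and -0.37) were lower. Replication protein A 70 kDa B-like g61164 was at 0.05 and 0.35. None of these genes was called at either age. Of 116 mitosis and cytokinesis genes tested from 155, 18 rose and 13 fell at 4 months, and 9 rose and 1 fell at 1 month. The median log2 fold change of the list was 0.36 at 1 month, where that of all genes was 0.03, and -0.01 at 4 months. Among them TPX2 g46834, a spindle protein, rose by 1.15 at 1 month (standard error 0.19, adjusted p = 0.00870) and by 1.83 at 4 months (standard error 0.20, adjusted p = 0.000266). The 65-kDa microtubule-associated protein 1-like g61218, which bundles microtubules, rose by 1.32 and 1.9 (adjusted p = 0.0345 and 0.00223). Structural maintenance of chromosomes protein 3 g51054, also among the most abundant of the list, did not pass (0.45 and -0.22, adjusted p = 0.114 and 0.322). The 13 genes of the list that fell at 4 months are not named here.

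The mitotic cyclins and core CDKs outside the words of the rule are a list added after the descriptions had been seen. Of 15 tested, 3 fell and 0 rose at 4 months against 20 days, where 17.8% of all genes fell and 17.5% rose. Against 1 month 5 fell and 0 rose, where 9.56% of all genes fell and 7.48% rose. For MBP3-OE against WT averaged over ages, with 1 WT library per age, the median of the 15 was 1.15 (all genes 0.06). Of the 15, 1 was called higher and 9 had an unadjusted p under 0.05, beside 0.164% called and 16.2% of all genes. Of the 116 mitosis and cytokinesis genes 2 were called higher and 36 had such a p. Of the 104 replication genes 0 were called and 15 had such a p. At 4 months against 20 days the core CDK gene cell division control protein 2 homolog A g21444 changed by 0.92 (standard error 0.19, adjusted p = 0.00465, under the fold threshold) and homolog A-like g44125 by -0.66 (adjusted p = 0.0148). Of 7 genes tested for endoreduplication and exit from the cycle, FIZZY-RELATED 3 g20286, an activator of the ubiquitin ligase that removes mitotic cyclins, rose by 1.78 at 4 months (standard error 0.29, adjusted p = 0.00146) and by 3.13 in MR against FR (standard error 0.52, adjusted p = 0.00600). The list's other call was g9943, an SMR domain-containing protein whose name shares only letters with the SIAMESE-RELATED inhibitors. It fell at 1 month (-1.41, adjusted p = 0.00573), at 4 months (-1.49, adjusted p = 0.000708) and in MR against FR (-1.33, adjusted p = 0.0300). The retinoblastoma-related gene g5696 changed by 0.28 (standard error 0.15, adjusted p = 0.151). WOX4, a marker of the cambium, summed over 2 genes to 24.0 to 31.3 FPKM at 20 days, 20.8 to 49.8 at 1 month and, at 4 months, 10.5 to 19.0 in MBP3-OE. In FR, DR and MR the sum was 16.7, 21.2 and 9.39 FPKM. The 2 genes differed. The more abundant g38697 did not pass at 1 month (0.55) or at 4 months (-0.26, adjusted p = 0.595). Gene g41900 did not pass at 1 month (-1.21) and fell at 4 months (-2.26, standard error 0.57, adjusted p = 0.0118).

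The 25 members that did not pass the minimum were at most 0.984 FPKM in any library. They include the Aurora kinase B-like gene g15099, whose protein acts in mitosis, at 0 FPKM in 7 of 12 libraries and 0.663 FPKM in MR, its highest value. MCM10 g42844, which helps to start the fork, was 0.508 to 0.984 FPKM at 20 days, 0.808 to 0.814 at 1 month and, at 4 months, 0.0262 to 0.230 in MBP3-OE. None of the 127 was at 0 in all libraries. The members lie on all 15 linkage groups, from 3 on linkage groups 8 and 9 to 14 on linkage group 12. The deposited annotation placed 9 of them in the KEGG pathway of DNA replication, out of 16 with any KEGG pathway.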

How the data were processed

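RNA-seq of 12 root libraries was used. Per the labels and the study's methods, the authors used cutadapt 1.9 for trimming and HISAT2 2.0.4 for alignment to a sweetpotato genome from the Ipomoea Genome Hub, whose build is not named, and quantified genes with StringTie 1.3.4d. The authors deposited 1 table of 45142 genes with whole-number counts and FPKM values for each library. How the counts were made is not given in the sources used here. Groups came from the labels.

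Counts were scaled by TMM and fitted by edgeR 4.0.16 (quasi-likelihood) with 6 cell means of genotype and age, on the 28065 genes whose FPKM averaged 0.5 or more, leaving 6 residual degrees of freedom. Each WT group has 1 library, so its spread was taken from MBP3-OE, whose common coefficient of variation, each age fitted alone, grew from 0.235 (20 days) through 0.406 (1 month) to 0.503 (4 months). TMM factors were 0.820 to 0.984 at 4 months in MBP3-OE and 1.02 to 1.13 at the earlier ages. Calls needed a Benjamini-Hochberg adjusted p under 0.05 over all genes and a log2 fold change of 1 or more in either direction. The code was tested on simulated data. Class sums are sums of the deposited FPKM and carry no test.

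Alternatives were other scalings, FPKM minima, DESeq2 1.42.0, limma 3.58.1 (trend, on log2(FPKM + 1)), a replicate block, MBP3-OE libraries alone and each MBP3-OE library left out. Members and lists were chosen with earlier results of these data known. Genes named were taken from the 3 of highest mean FPKM in each class and up to 3 more with the largest called change in MBP3-OE against 20 days (mean FPKM of at least 1). The rule also took those called in WT DR against FR, between genotypes or in an interaction. Members that lie side by side were planned for naming but were not added for that reason, so not all such pairs are named. The remaining genes named, among them those called in MR against FR, were chosen after their values were seen. No sequence is printed, since 0 of the 127 gene IDs occur in the gene table at hand, which is of another assembly (IBA_r1.0). Software was Python 3.11.15, pandas 2.3.3, NumPy 2.4.6, Matplotlib 3.10.9 and R 4.3.3.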

Additional observations from a re-analysis of the deposited data

How the results depend on the processing

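Scaling and tool changed counts more than directions. Among the genes named by the rule above, no called value of MBP3-OE against 20 days changed sign under any alternative. The remaining genes named and the other comparisons were not checked for this under every alternative. Of the members higher at 1 month than at 20 days in MBP3-OE, 6 in the analysis reported, DESeq2 gave 10 and limma 3. Limma also gave 7 members higher at 4 months than at 20 days. With library totals and no further scaling 30 members were lower at 4 months than at 1 month, and the medians of the tested members were -0.30 for 4 months against 20 days, -0.34 for 4 months against 1 month, 0.050 for DR against FR and -0.29 for the difference of the 4-month effect between genotypes, where those of all genes were -0.23, -0.33, 0.18 and -0.16. DESeq2 and limma each called 1 member between DR and FR, and DESeq2 called 1 between genotypes and 4 in the difference of the 4-month effect. When single MBP3-OE libraries were left out, members higher and lower at 1 month numbered 0 to 9 and 1 to 5, those higher and lower at 4 months against 20 days 9 to 12 and 13 to 22, those higher and lower at 4 months against 1 month 6 to 8 and 5 to 14, and those called between MR and FR 13 to 25. With a replicate block there were 5 higher and 3 lower at 1 month, 10 and 22 at 4 months against 20 days, 6 and 11 at 4 months against 1 month and 13 between MR and FR. Of the genes named, MCM9 g59512 and H3.3 g38591 at 1 month and H3.2-like g62054 and HTR12 g31331 at 4 months were not called in that fit (adjusted p = 0.0518, 0.0562, 0.0516 and 0.0492, the last under the fold threshold), and H3.2 g57603 and cyclin A2-1-like g21182 were. No clear pairing of samples by number was seen, and this check cannot show what the numbers stand for. Deviations of same-numbered libraries correlated at -0.049 to 0.097 and those of others at -0.107 to 0.108, and a library correlated best with its own number in 8 of 18 cases. Other limits are the single WT libraries, a spread that widens with age, copies of histone genes that may share reads, and low FPKM, at which the falls of scarce genes are poorly sized.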
